A study of Homo sapiens with 40 samples.

Results

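The comparison of glyphosate at 0.1 g/L with control covers 10 of the 40 RNA-seq libraries of the series, namely the 5 labelled Glyphosate_0.1g/L and the 5 labelled Control. The cells were differentiated HepaRG (HPR 116), a human hepatic line whose cultures hold hepatocyte-like and primitive biliary cells. Cultures were exposed from day 8 to day 14, that is for 6 days, in Williams' E medium with 2% serum and 1% DMSO, and the controls received the same medium and solvent. The dose of 0.1 g/L was the highest of 3 glyphosate doses, next to 1 mg/L and 10 µg/L with 5 libraries each. The 5 controls also served a PCB 126 experiment, and all 10 libraries come from 1 cell line. Nothing in the labels says that libraries of a group came from separate cultures, so the p-values below measure the spread between libraries, which may be partly technical.

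Glyphosate is a phosphonomethyl derivative of glycine. In plants and many microbes it blocks EPSP synthase, an enzyme of the shikimate pathway that makes aromatic amino acids, and animal cells lack this pathway. In liver cells the questions asked of such a compound concern xenobiotic metabolism, lipid metabolism, mitochondrial respiration and stress responses, and these gene groups are described one by one after the size of the differences.

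The values were FPKM, that is fragments scaled to the length of the transcript in kilobases and to the mapped fragments of the library, summed over all transcripts that carry the same gene name. The table held 56568 gene names, and 9533 of them had a variance of FPKM above 1 across the 25 glyphosate, Roundup and control libraries and were tested. Summed FPKM ranged from 299809 to 471687 in control libraries and from 322884 to 462200 in those at 0.1 g/L. Control replicate 5 and 0.1 g/L replicate 2 had the lowest sum of their group and stood apart from the other 8 libraries on the first principal component. Hepatocyte markers were high in all 10 libraries, with ALB, the gene of serum albumin, at 6315 to 16087 FPKM. The biliary keratin KRT19 lay between 189 and 391 FPKM, while KRT7 reached only 1.18 and EPCAM only 0.0401. The endothelial marker PECAM1 did not exceed 0.401 FPKM and the leukocyte marker PTPRC did not exceed 0.0293, whereas the collagen gene COL3A1 lay between 7.99 and 20.4 FPKM.

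No gene changed at 0.1 g/L by the test used. Of the 9533 genes, 0 had an adjusted p under 0.05 (limma, Benjamini-Hochberg), and the smallest adjusted p was 1. At an unadjusted p under 0.05 there were 84 genes, which is 0.881% of those tested, 42 of them higher and 42 lower than in controls (0.441% each). Evenly spread p-values would put a share of 0.05 there, so the low count alone does not show that nothing changed. The count also depended on scaling, with 329 under quantile normalization and 647 of 7291 genes under 75th-percentile scaling. In 8 genes, or 0.0839%, the 5 treated and the 5 control values did not overlap, 4 in each direction (0.042% each). The count of adjusted calls was 0 to 3 under the other processing settings. Ordinary linear models called 0 genes too, with or without a library-size covariate. At an unadjusted p under 0.05 they had 60 genes without it and 316 with it. The covariate was the sum of a library's log2(FPKM + 1) values above 0 and up to their 75th percentile, over the tested genes.

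The differences were small for most genes, while the intervals around them were wider than the differences themselves. On the log2(FPKM + 1) scale, which understates changes of low genes, the median difference was -0.01 and the median absolute difference was 0.08. The median difference was -0.17 without control replicate 5 and 0.12 without 0.1 g/L replicate 2. The central 90% of genes lay between -0.35 and 0.31. An absolute difference above 1, which is a factor of 2 in FPKM + 1, was found in 56 genes (0.587%), 28 in each direction. The typical precision came from a within-group SD of 0.42 (median over genes) with 5 libraries a group, which gave a median half-width of 0.56 for the 95% interval. For 8260 genes (86.6%) that interval lay inside -1 to 1, so that for these a factor of 2 in FPKM + 1 was outside it. For 9432 genes (98.9%) it lay inside -2 to 2. In genes of low level a factor of 2 in FPKM itself is less than 1 on this scale. It can therefore lie within an interval that is inside -1 to 1, here and in the lists below. Low genes scattered more. The median absolute difference was 0.12 among the genes of lowest level, 0.07 among those in the middle and 0.06 among the highest, with the genes split into 3 equal classes.

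**Figure D1:**
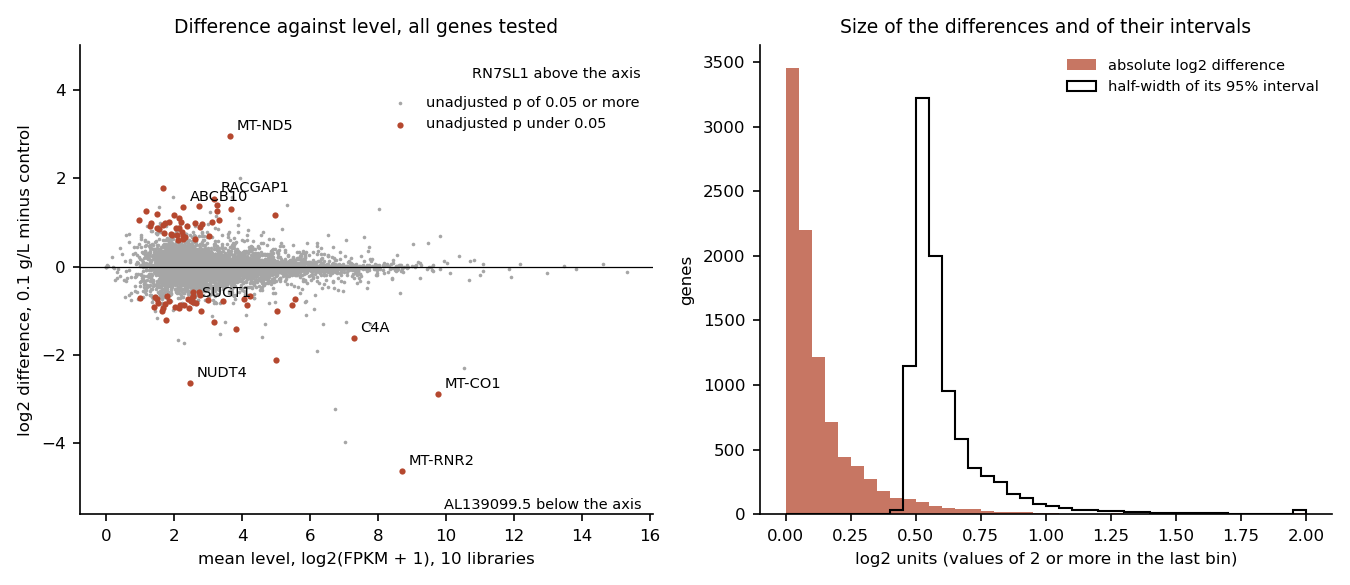
Left, log2 difference of each of the 9533 genes (0.1 g/L minus control) against its mean level on the log2(FPKM + 1) scale, with genes of unadjusted p under 0.05 in red. Right, numbers of genes by absolute log2 difference (red) and by the half-width of the 95% interval (black line): the median absolute difference is 0.08, while the median half-width is 0.56, and RN7SL1 and AL139099.5 lie outside the vertical range of the left panel.

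The widest differences of the table belonged to 2 names for 1 RNA. RN7SL1 encodes 7SL RNA, the RNA scaffold of the signal recognition particle, which brings ribosomes that make secreted proteins to the endoplasmic reticulum. The table lists it as a transcript of 299 bases on chromosome 14 (plus strand) and lists AL139099.5 at the same place as a transcript of 300 bases, so the 2 names differ in a single base at the start.

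In controls, RN7SL1 was listed at 0 in all 5 libraries, and AL139099.5 was listed at 34438, 36906, 25134, 32512 and 21909 FPKM. At 0.1 g/L, RN7SL1 was listed at 0, 26078, 32049, 31679 and 34768 FPKM, and AL139099.5 at 36819 FPKM in replicate 1 and at 0 in the other 4 libraries. Each library thus listed these fragments under 1 name only, and 4 of the 5 treated libraries used the name that no control used. The unadjusted p were 0.00179 and 0.00207 (limma) and the adjusted p were 1, and no fold is given against libraries listed at 0. When all 6 transcripts of the assembled locus were summed, the levels were 38064, 41140, 35539, 35834 and 26351 FPKM in controls and 40853, 29574, 32049, 34809 and 34769 FPKM at 0.1 g/L. These ranges overlapped, the log2 difference was -0.03 (SE 0.27) and the unadjusted p was 0.902 (limma on loci). RN7SL2, whose transcript is identical to RN7SL1 at 295 of 299 aligned bases, lay between 17987 and 29566 FPKM in controls and between 20448 and 29295 at 0.1 g/L. Fragments of such near copies may be split between them by the alignment.

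The same kind of exchange was seen between annotated and newly assembled transcripts of protein-coding genes. NUDT4, a Nudix hydrolase of diphosphoinositol polyphosphates (chr12:93377883-93408146), had 8.41, 9.90, 8.24, 8.81 and 5.53 FPKM in controls and 0.0355, 4.30, 0.0776, 0.0808 and 0.0452 FPKM at 0.1 g/L. The groups did not overlap, with a log2 difference of -2.63 (SE 0.62, unadjusted p 0.000214 by limma, adjusted p 1). In controls nearly all of this came from the annotated transcript ENST00000547014. In the 4 low treated libraries an unnamed transcript of the same locus held 4.42, 4.51, 5.34 and 4.37 FPKM, and in controls it was listed at 0.

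The 2 NUDT4 transcripts differ in length, 1419 against 9782 bases, and an FPKM value divides by that length. The whole locus, summed as FPKM, differed by -0.67 (SE 0.25, unadjusted p 0.0107 by limma). Summed as FPKM times length in kilobases, which follows fragments and not the transcript they were given to, it differed by 1.37 in the other direction (SE 0.37, unadjusted p 0.000621, adjusted p 0.924). The direction of NUDT4 at 0.1 g/L therefore depended on which of these quantities was used.

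RACGAP1, a GTPase-activating protein of the centralspindlin complex that acts in cytokinesis (chr12:49976923-50033136), had the smallest p of all genes. Its control values were 3.19, 13.0, 2.19, 1.88 and 1.31 FPKM and its treated values 10.0, 6.32, 13.1, 17.4 and 11.2 FPKM. Control replicate 2 lay within the treated range and the other 4 controls lay below it. The log2 difference was 1.54 (SE 0.35) with an unadjusted p of 0.000133 and an adjusted p of 1 (limma), and without control replicate 2 it was 1.97 with an adjusted p of 0.00151. An unnamed transcript of the RACGAP1 locus was at 8.44, 0, 7.30, 8.29 and 4.31 FPKM in controls and at most at 0.744 FPKM at 0.1 g/L. The whole locus was at 15.2, 13.0, 9.57, 10.2 and 5.63 FPKM in controls and at 11.05, 6.87, 13.4, 17.5 and 11.8 FPKM at 0.1 g/L, with a log2 difference of 0.17 (SE 0.26, unadjusted p 0.511 by limma). These locus ranges overlapped.

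ABCB10, an ABC transporter of the inner mitochondrial membrane, had 0.523, 0.984, 2.55, 0.9704 and 4.46 FPKM in controls and 5.36, 3.64, 6.84, 7.59 and 5.01 FPKM at 0.1 g/L, a log2 difference of 1.34 (SE 0.50). Its locus as a whole was at 6.47, 6.82, 6.46, 6.21 and 4.46 FPKM in controls against 5.36, 3.64, 6.84, 7.59 and 5.01 FPKM, a log2 difference of -0.11. Controls 1 to 4 held 3.91 to 5.95 FPKM in an unnamed transcript that was listed at 0 in all 5 treated libraries. TRIM21, an antibody receptor and ubiquitin ligase of the cytosol, had 6.28, 3.00, 4.27, 0.859 and 0.396 FPKM in controls against 5.97, 3.38, 5.84, 6.16 and 5.16, and its log2 difference was 0.91 by gene name and 0.07 by locus.

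SUGT1, a co-chaperone of HSP90 that is needed for kinetochore assembly (chr13:52652709-52700909), was the only one of the 24 genes with the smallest p whose groups did not overlap either by name or by locus. By name it had 6.76, 9.26, 8.18, 5.74 and 4.57 FPKM in controls and 3.68, 2.26, 4.46, 3.75 and 2.99 FPKM at 0.1 g/L, with a log2 difference of -0.82 (SE 0.25, unadjusted p 0.0028 by limma, adjusted p 1). By locus it was at 8.08, 11.1, 16.0, 6.90 and 7.17 FPKM against 3.87, 2.93, 4.51, 5.78 and 3.16 FPKM, with a log2 difference of -1.07 (SE 0.26, unadjusted p 0.000194). All 5 treated libraries were below all 5 controls on both measures, and 0.0211% of the loci tested had groups that did not overlap. Here too the transcripts differed: ENST00000343788, of 1217 bases, had 3.64 to 7.08 FPKM in controls and 0.226 to 0.802 FPKM at 0.1 g/L, while ENST00000310528, of 14131 bases, had 0 to 2.04 FPKM in controls and 1.83 to 3.37 FPKM at 0.1 g/L. By FPKM times length the locus was 0.99 higher at 0.1 g/L (SE 0.39, unadjusted p 0.0151), with overlapping groups.

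**Figure D2:**
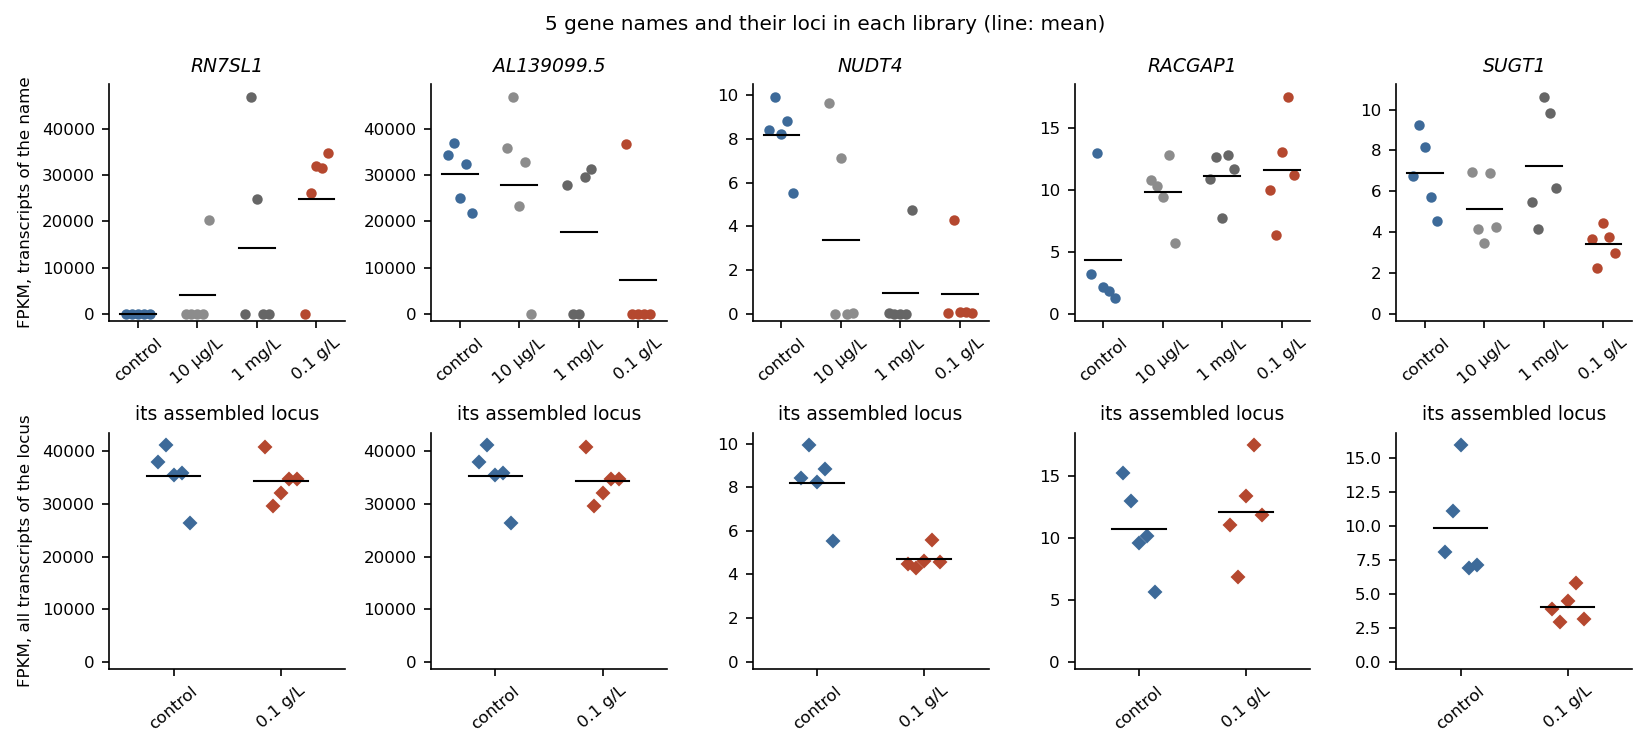
FPKM of RN7SL1, AL139099.5, NUDT4, RACGAP1 and SUGT1 in each library of the control group and of the 3 glyphosate doses (upper row), and of all transcripts of the same locus in control and 0.1 g/L libraries (lower row), with group means as lines. RN7SL1 and AL139099.5 alternate between 0 and 20403 FPKM or more while their shared locus overlaps between the groups, and the SUGT1 locus is the only one shown whose 2 groups do not overlap.

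The other genes among the 24 with the smallest p had unadjusted p between 0.00221 and 0.0116, and in all 10 of the 24 were higher and 14 lower. The genes with higher values were CEP55, which acts in the last step of cytokinesis (log2 difference 1.26), DTNA, an alpha-dystrobrevin of the dystrophin complex (0.86), the transcription factors ZFX (1.37) and ZNF217 (0.69), the metalloreductase STEAP2 (0.93) and TVP23C (1.01), besides RACGAP1, ABCB10, TRIM21 and RN7SL1. The genes with lower values were ERO1A, the oxidase that keeps protein disulfide isomerase active in the endoplasmic reticulum (-1.41), the receptor tyrosine kinase FGFR1 (-0.91), the deubiquitinase USP28 (-0.94), the ubiquitin ligase adaptor KLHL18 (-1.01), the acyl-peptide hydrolase APEH (-0.87), the chromatin reader BRPF1 (-0.84), the ADP-ribosyltransferase PARP8 (-0.65), the poly(A) nuclease PAN2 (-1.004), complement C4A (-1.62), ATP5S (-0.75) and the 5.8S ribosomal RNA gene RNA5-8S4 (-2.10).

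None of the 24 genes held every transcript of its assembled locus, whereas 36.8% of all tested genes that lie in 1 locus did. A locus is the set of overlapping transcripts that the assembly joined, with and without a gene name, and may include other genes. For 22 of the 24 the locus passed the same filter, and 18 of these loci differed in the same direction as the gene. The median absolute difference was 1.01 for the 24 genes and 0.19 for their loci, and in 19 of them the locus differed by less than 50% of the gene difference or in the other direction. An unadjusted p under 0.05 was kept by 3 loci, those of NUDT4, SUGT1 and PARP8, against a background of 0.38% of the loci tested. The 24 genes were chosen by p in these same libraries, and their loci include their transcripts. A share above that background is therefore no separate evidence. With FPKM times length the median absolute difference of these loci was 0.05, and NUDT4 and SUGT1 were the 2 with an unadjusted p under 0.05, both now higher at 0.1 g/L. C4A is nearly identical to C4B and shares its locus, and C4B was at 129 to 240 FPKM in controls and at 113 to 251 FPKM at 0.1 g/L.

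**Figure D3:**
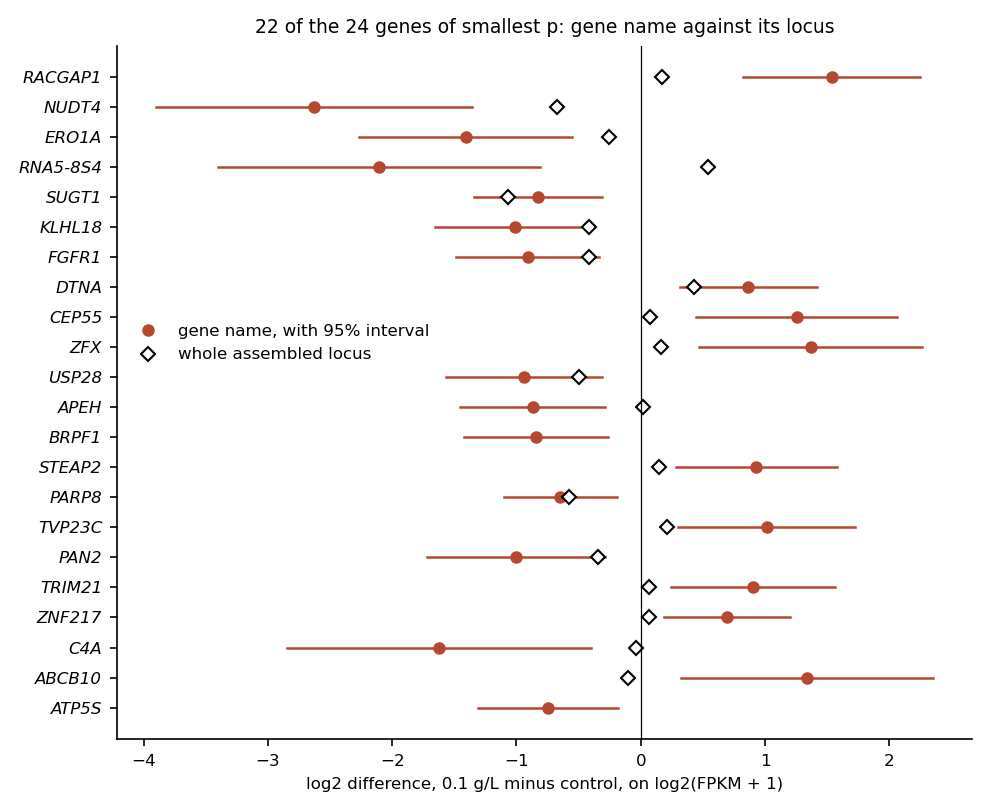
Log2 difference (0.1 g/L minus control, log2(FPKM + 1) scale) of 22 of the 24 genes with the smallest p, as red points with 95% intervals, and of the whole assembled locus of each as open diamonds. RN7SL1 and AL139099.5 are left out for their range, BRPF1 and ATP5S have no tested locus, and most diamonds lie nearer to 0 than the gene's own interval.

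The same held for all 84 genes with an unadjusted p under 0.05. Of the 75 that lie in a single tested locus, 7 held every transcript of it, so that gene and locus were the same values. By locus, 14 of the 75 kept an unadjusted p under 0.05, and the median absolute difference was 0.93 by gene and 0.17 by locus. Over all 9297 genes in a single tested locus these medians were 0.08 and 0.05. Among the 56 genes with an absolute difference above 1, the locus differed by more than 1 in 13, against 0.285% of all loci tested. In 10 of the 56 the gene held every transcript of its locus, so the 2 measures were the same there. The 56 were chosen by their difference in these same libraries, so their share is no separate evidence. The 8 genes whose groups did not overlap were CEP55, DTNA, AC064807.1 and E4F1 on the higher side and NUDT4, PAN2, SUGT1 and NSD2 on the lower side. AC064807.1 was higher by name but, by FPKM times length of its locus, all 5 treated libraries lay below all 5 controls (log2 difference -1.40, SE 0.33, unadjusted p 9.6e-05 and adjusted p 0.573 by limma). NSD2, a histone H3 lysine 36 methyltransferase, had 8.14, 7.41, 5.89, 5.82 and 6.68 FPKM in controls and 4.56, 2.68, 5.48, 5.18 and 3.61 FPKM at 0.1 g/L, with a log2 difference of -0.58 by name, -0.36 by locus and 0.01 by FPKM times length. E4F1, a transcription factor of the p53 network, had 1.02, 1.88, 2.33, 2.32 and 2.23 FPKM against 2.55, 2.92, 3.52, 5.36 and 3.13 FPKM, with a log2 difference of 0.60 by name (SE 0.29). By FPKM times length its locus differed by 0.19 (SE 0.27), and the groups overlapped there.

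When the test was repeated on assembled loci in place of gene names, 1 of 9477 loci (0.0106%) passed the threshold, and the unadjusted count was 36 (0.38%). The locus that passed holds a single unnamed transcript at chr3:90201252-90201580 (GRCh38). It was at 5.62, 3.24, 3.75, 4.73 and 1.95 FPKM in controls and was listed at 0 in all 5 libraries at 0.1 g/L (adjusted p 0.00147, limma). It was also listed at 0 in all 5 libraries at 10 µg/L, while at 1 mg/L it was at 0, 5.65, 0, 3.18 and 4.34 FPKM, so the levels did not follow the dose. Its 329 bases are identical to transcripts of PROS1, the gene of the liver-made anticoagulant protein S, at 326 positions in the opposite orientation. PROS1 itself was at 44.7, 51.5, 38.1, 49.5 and 31.2 FPKM in controls and at 49.4, 22.2, 53.4, 80.7 and 54.0 FPKM at 0.1 g/L, which overlapped (log2 difference 0.18, SE 0.29). The level of the locus is uncertain, since fragments of 2 such near copies can be placed on either. In FPKM times length, 0 of 11905 loci passed, with 63 (0.529%) at an unadjusted p under 0.05. This locus was not among the 11905. With 329 bases its values on that scale were too small for the variance filter, so that count does not bear on it.

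Gene groups of liver function were described with 23 lists of 596 distinct genes, of which 445 were tested. None of the 445 passed the threshold, and 5 (1.12%, against 0.881% of all genes) had an unadjusted p under 0.05, namely MT-CO1, MT-ND5, CDC20, BUB1B and RN7SL1. For 381 genes (85.6%) the 95% interval lay inside -1 to 1. The medians of 22 lists lay within 0.15 of 0, with -0.01 for all genes tested, and the exception was the list of mitochondrially encoded genes. With 75th-percentile scaling the median of all genes moved to 0.15, and 14 list medians changed sign under that or quantile scaling. Relative to the median of all genes, 19 of the 23 kept their sign under these scalings.

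No gene of xenobiotic metabolism passed the test, and intervals lay inside -1 to 1 for 3 of 5 aryl hydrocarbon receptor targets, 11 of 11 CYP2 and CYP3 genes and 19 of 23 conjugation enzymes. CYP1A1, CYP1A2 and CYP1B1 are the cytochrome P450 targets of the aryl hydrocarbon receptor, and 5 of the 10 listed receptor targets were tested. CYP1A1 was at 7.69, 3.76, 0.175, 0 and 0 FPKM in controls and at 0, 0.185, 6.48, 0.0454 and 2.42 FPKM at 0.1 g/L, and both groups ran from 0 to over 6 FPKM. CYP1A2 had too little variance to be tested and was at 0.982 ± 0.606 (SD, n = 5) against 1.08 ± 0.626 FPKM. CYP1B1 was at 14.4 ± 6.65 (SD, n = 5) against 15.1 ± 6.57 FPKM, with a log2 difference of 0.06 (95% interval -0.60 to 0.72).

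CYP3A4, the main drug-metabolising P450 of adult liver, was at 1.37, 3.21, 6.95, 2.17 and 1.69 FPKM in controls and at 1.199, 1.11, 3.55, 4.96 and 3.17 FPKM at 0.1 g/L, a log2 difference of -0.07 (SE 0.33). CYP2B6, a target of the receptor CAR, differed by 0.09 (SE 0.36) and CYP2C8 by -0.06 (SE 0.29). The differences of the 11 CYP2 and CYP3 genes ran from -0.20 for CYP3A5 to 0.31 for CYP2C18. UGT1A6, a glucuronosyltransferase among the receptor targets, differed by -0.39 (95% interval -1.11 to 0.32), and the UGT1A locus it belongs to by -0.05. Among 23 conjugation enzymes, GSTA1, the most abundant one, was at 439 ± 85.4 (SD, n = 5) against 413 ± 124 FPKM. The lowest difference there was that of UGT2B17 (-0.89), which was listed at 20.8 FPKM in control replicate 4 and at 0 in the other 9 libraries, while the locus it shares with UGT2B15 differed by 0.02 (SE 0.25).

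Genes of lipid and bile acid metabolism did not differ by the test either. In the list of lipogenesis and lipid storage, 28 genes were tested and 25 had intervals inside -1 to 1. APOB, the structural protein of very low density lipoprotein, was at 280 ± 54.7 (SD, n = 5) against 290 ± 86.3 FPKM, and ACACA, the first committed enzyme of fatty acid synthesis, had the lowest difference of its list with -0.32 (SE 0.35). Of 31 genes of fatty acid oxidation and PPARA targets, ACOT1, a cytosolic acyl-CoA thioesterase, had the highest difference with 0.94 (95% interval -0.51 to 2.40), while the locus it shares with ACOT2 differed by 0.06 (SE 0.28). Of 26 cholesterol synthesis genes, 22 had intervals inside -1 to 1, and EBP, a sterol isomerase, was at 3.02, 16.9, 8.62, 14.4 and 9.01 FPKM in controls and at 18.7, 2.60, 2.30, 4.14 and 3.97 FPKM at 0.1 g/L (log2 difference -0.83, SE 0.48, and -0.24 by locus). The 11 tested genes of bile acid synthesis and transport lay between -0.29 for HSD3B7 and 0.38 for CYP7B1.

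Glyphosate is an analogue of glycine, and 34 genes of glycine and serine metabolism were listed for this reason. Of these, 23 were tested and 22 had intervals inside -1 to 1, with a median difference of 0.02. GATM, which joins arginine and glycine in creatine synthesis, was at 256 ± 52.2 (SD, n = 5) against 243 ± 95.3 FPKM and had the lowest difference (-0.14, SE 0.29). GAMT, the next enzyme of creatine synthesis, had the highest (0.28, SE 0.49), with 11.4, 14.1, 51.5, 14.0 and 15.1 FPKM in controls and 10.4, 21.8, 34.4, 15.8 and 39.8 FPKM at 0.1 g/L.

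The stress lists gave the same picture. The p53 target CDKN1A, an inhibitor of cyclin-dependent kinases, was at 150 ± 41.04 (SD, n = 5) against 147 ± 35.5 FPKM, and all 23 tested p53 targets had intervals inside -1 to 1. Of 25 genes of the unfolded protein and integrated stress responses, DDIT3, the transcription factor CHOP, had the highest difference. It was at 2.23, 7.79, 6.81, 1.43 and 4.49 FPKM in controls and at 10.7, 4.56, 5.88, 9.67 and 6.08 FPKM at 0.1 g/L (log2 difference 0.70, SE 0.38, unadjusted p 0.0774 by limma), and its locus differed by 0.02 (SE 0.27). The heat shock protein HSP90AB1 differed by -0.01 (SE 0.28). Of 28 NRF2 and antioxidant genes, FTL, the ferritin light chain, was at 3784 ± 806 (SD, n = 5) against 3656 ± 863 FPKM, and SOD1 was at 19.9, 18.6, 18.9, 0.648 and 0.378 FPKM against 52.3, 10.5, 2.011, 3.09 and 42.6 FPKM, a spread too wide for an interval inside -2 to 2. The SOD1 locus as a whole lay between 29.2 and 55.97 FPKM in controls and between 28.1 and 55.9 FPKM at 0.1 g/L, with a log2 difference of -0.04 (SE 0.27).

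In the list of 24 tested cell cycle genes, 2 had an unadjusted p under 0.05 and they pointed in opposite directions. CDC20, an activator of the anaphase-promoting complex, was at 8.74, 7.05, 4.30, 6.50 and 1.04 FPKM in controls and at 5.88, 7.59, 7.58, 12.3 and 9.63 FPKM at 0.1 g/L (log2 difference 0.70, SE 0.31, and 0.04 by locus). BUB1B, a kinase of the spindle checkpoint, was at 8.95, 6.19, 6.39, 5.44 and 3.23 FPKM against 3.73, 3.29, 1.77, 6.29 and 2.08 FPKM (log2 difference -0.70, SE 0.33, and -0.36 by locus). Of 26 inflammation and acute phase genes, 13 had intervals inside -1 to 1. FGA, the fibrinogen alpha chain, was at 2249 ± 908 (SD, n = 5) against 2076 ± 873 FPKM. In the interferon list of 26 genes, IRF9 differed by -0.45 (SE 0.25) and IFITM1 by 0.52 (SE 0.45, and -0.02 by locus), and all 19 metal handling genes had intervals inside -1 to 1.

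Cell type markers were at similar levels in both groups. ALB was at 11206 ± 1483 (SD, n = 5) against 11669 ± 3500.3 FPKM, a log2 difference of 0.01 (95% interval -0.51 to 0.52), and 25 of 26 hepatocyte markers had intervals inside -1 to 1. KRT19 was at 303 ± 85.6 (SD, n = 5) against 305 ± 68.6 FPKM, and all 9 tested biliary and progenitor markers had intervals inside -1 to 1. The 8 tested fibroblast and stellate cell markers had the highest list median (0.12), and their summed level overlapped between the groups. In bulk samples, fewer cells of a type and less RNA per cell cannot be told apart.

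**Figure D4:**
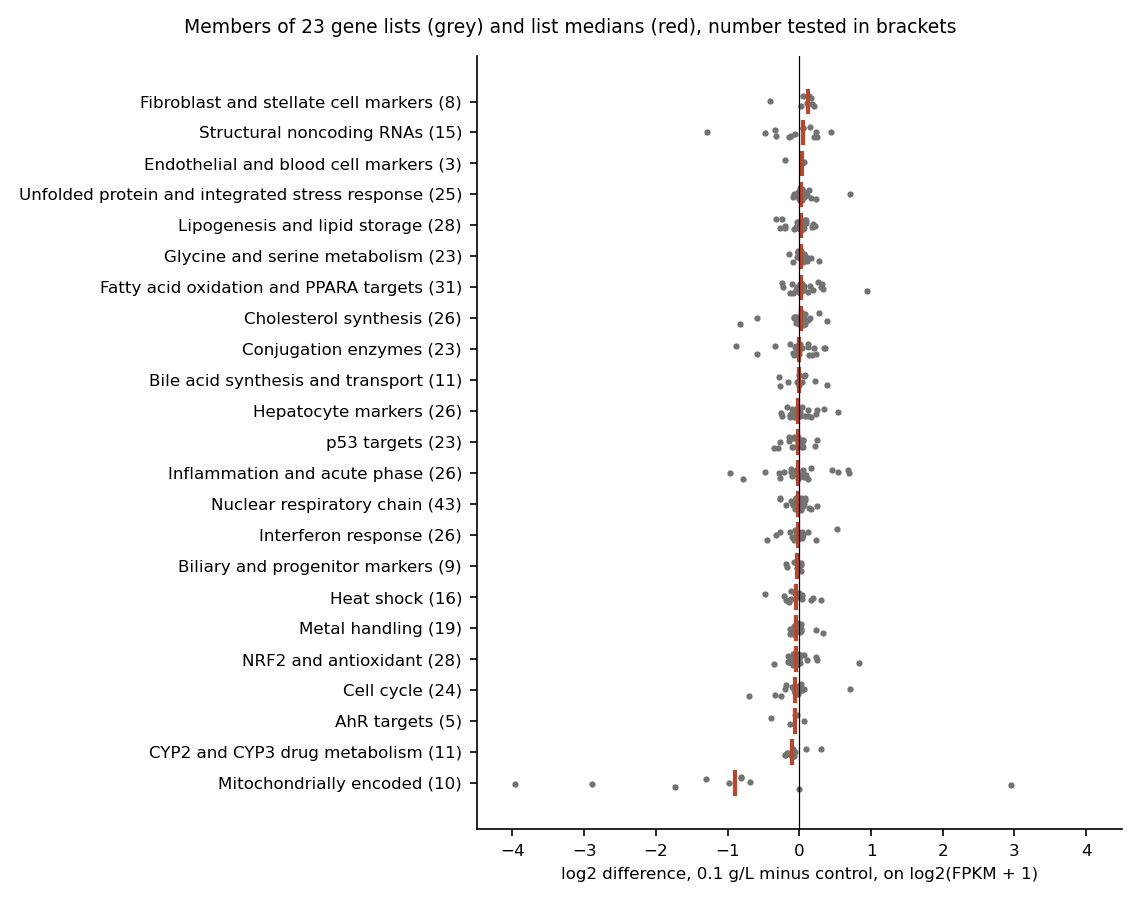
Log2 differences (0.1 g/L minus control, log2(FPKM + 1) scale) of the tested members of 23 gene lists as grey points, with list medians as red bars and the number tested in brackets, RN7SL1 being outside the axis. All lists have a median between -0.10 and 0.12 except the mitochondrially encoded genes, whose median is -0.90 and whose members run from -3.96 to 2.95.

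The structural noncoding RNAs had 5 of 15 intervals inside -1 to 1. RN7SK, the RNA that holds the elongation factor P-TEFb inactive, differed by -0.12 (SE 0.27), and RNU2-2P, a copy of the U2 spliceosomal RNA, by -1.29 (SE 0.75), with -0.96 (SE 0.49) for its locus.

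The mitochondrially encoded genes were the list whose median lay farthest from 0. Of the 13 mRNAs that mitochondrial DNA encodes, 10 were tested, 9 had differences below 0, 1 had an interval inside -1 to 1, and 0 passed the threshold. MT-CO1, a core subunit of cytochrome c oxidase, was at 1506, 2009, 1411, 1223 and 193 FPKM in controls and at 0, 293, 1352, 411 and 280 FPKM at 0.1 g/L (log2 difference -2.89, SE 1.08, unadjusted p 0.0123 by limma). MT-ND5, a subunit of complex I, was listed at 0 in controls 1 to 4 and at 12.5 FPKM in control 5, and at 39.8, 29.1, 0, 17.2 and 15.5 FPKM at 0.1 g/L (log2 difference 2.95, SE 1.15, unadjusted p 0.0157). MT-CO3, another subunit of cytochrome c oxidase, was listed at 0 in the same 5 of the 10 libraries in which MT-ND5 was above 0.

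Such zeros were frequent in every library, although every cell with mitochondria makes these mRNAs. Between 4 and 9 of the 13 mRNAs were listed at 0 in a control library and between 7 and 10 in a library at 0.1 g/L, with 7 to 10 at 10 µg/L and 4 to 10 at 1 mg/L. MT-ND3 and MT-ND6 were listed at 0 in all 25 libraries. A gene listed at 0 here is therefore only that, and the fitted differences of this list, which include such zeros, are not folds of expression. MT-CYB, the cytochrome b subunit of complex III, had a value in every library, with 166, 169, 120, 115 and 73.2 FPKM in controls and 177, 117, 117, 126 and 89.6 FPKM at 0.1 g/L. Its log2 difference was -0.01 (95% interval -0.58 to 0.56).

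The 2 mitochondrial ribosomal RNAs, added after their values were seen, varied in the same way. MT-RNR2 was at 338, 718, 889, 698 and 629 FPKM in controls and at 0.846, 0.592, 596, 294 and 18.7 FPKM at 0.1 g/L, a log2 difference of -4.63 (SE 2.02, unadjusted p 0.0288 by limma). MT-RNR1 ran from 0 to 372 FPKM in controls and from 0 to 124 FPKM at 0.1 g/L. MTCO1P12, a nuclear copy of MT-CO1, was at 228, 280, 161, 1.28 and 109 FPKM in controls and at 220, 0.433, 0.578, 53.02 and 0.358 FPKM at 0.1 g/L. The mitochondrial share of the FPKM sum was 0.626% ± 0.108 (SD, n = 5) in controls and 0.281% ± 0.232 at 0.1 g/L (exact permutation test, 2-sided p 0.0317, 0.0992 after adjustment over 5 library properties). The share ran from 0.469% to 0.731% in controls and from 0.146% to 0.691% at 0.1 g/L, so the groups overlapped through 0.1 g/L replicate 3. It was 0.242%, 0.246%, 0.221%, 0.314% and 0.885% at 10 µg/L, and 0.187%, 0.796%, 0.770%, 0.642% and 0.163% at 1 mg/L. Low shares were thus not confined to the highest dose. The 43 tested nuclear genes of the respiratory chain, by contrast, had a median of -0.02 with NDUFA3 the lowest (-0.28), 42 of them with intervals inside -1 to 1, and ATP5B, a catalytic subunit of ATP synthase, was at 174 ± 39.8 (SD, n = 5) against 171 ± 46.5 FPKM.

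**Figure D5:**
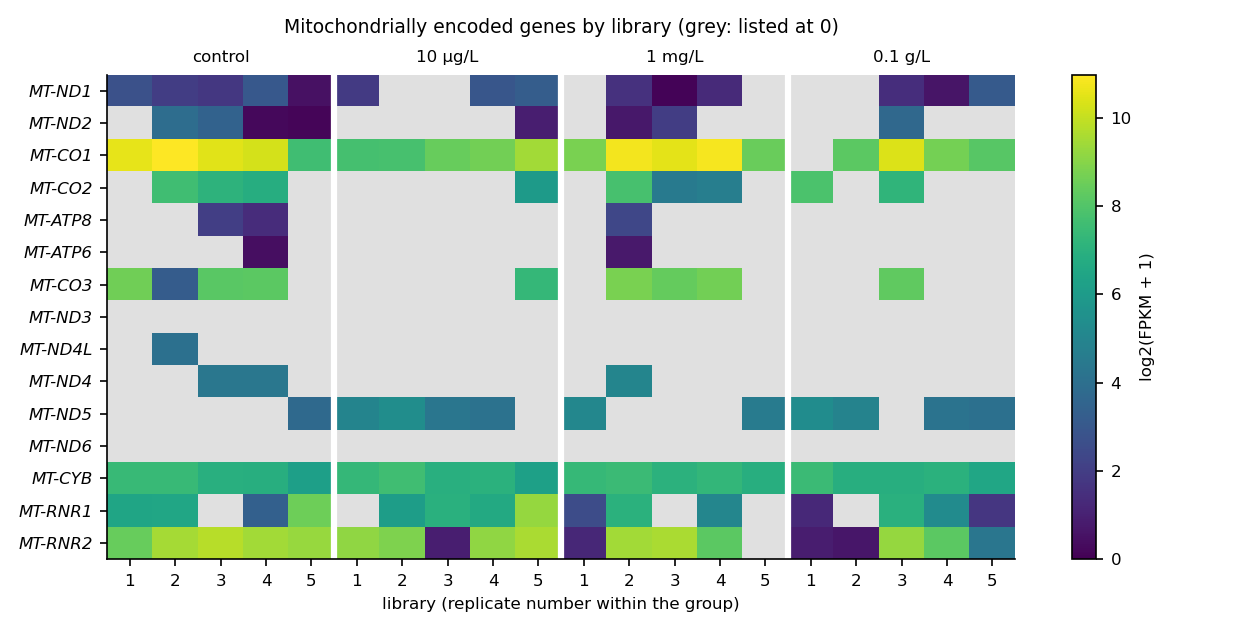
Level of the 13 mitochondrial mRNAs and 2 mitochondrial ribosomal RNAs in each library of the control group and the 3 glyphosate doses, as log2(FPKM + 1), with grey cells for genes listed at 0. MT-CYB has a value in every library, MT-ND3 and MT-ND6 in none, and MT-CO3 is listed at 0 in 4 of 5 libraries at 0.1 g/L and in 1 of 5 controls.

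Other properties of the libraries were compared in the same way. The number of gene names with a value above 0 was 29591 ± 1815 (SD, n = 5) in controls and 31466 ± 346 at 0.1 g/L (exact permutation test, 2-sided p 0.0397, 0.0992 after adjustment). The share of the FPKM sum in structural noncoding RNAs was 30.6% ± 0.888 (SD, n = 5) against 29.9% ± 2.04 (exact p 0.532). Depth was estimated from the steps between low FPKM values of single-exon transcripts at 13.2 to 17.2 M fragments in controls and 15.9 to 29.0 M at 0.1 g/L, where M stands for 1e6 (exact p 0.0714). Without control replicate 5 and 0.1 g/L replicate 2 the differences in gene names and in the mitochondrial share kept their direction, each with an exact p of 0.0857, where 4 against 4 cannot go below 0.0286. The part of depth and of detected names in the single-gene values above was not tested.

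In the principal component analysis of the 25 libraries, 44.6% of the variance fell on component 1, 6.16% on component 2 and 4.32% on component 3. The groups did not differ on the first component (difference 2.58, exact permutation p 0.857). On components 2 and 3 they differed by -17.6 and 13.6, each with an exact p of 0.0397 and an adjusted p of 0.0595 over 3 components. RN7SL1 and AL139099.5 together made up 57.5% of the squared loadings of the second component, and MT-RNR2, MT-CO3 and MT-CO2 led the third. When each gene was scaled to unit variance, which gives other axes, the differences on components 2 and 3 were 3.11 and -3.57, with exact p of 0.778 and 0.786.

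The highest dose did not show more differences from control than the lower doses did. These comparisons share the 5 controls, so their values stand side by side without a test between them. An adjusted p under 0.05 was found for 0 genes at each of 10 µg/L, 1 mg/L and 0.1 g/L. The unadjusted counts were 95 (0.997%), 125 (1.31%) and 84 (0.881%), the genes with an absolute difference above 1 numbered 63 (0.661%), 77 (0.808%) and 56 (0.587%), and the median absolute differences were 0.09, 0.16 and 0.08. The order of these values did not follow the dose. SUGT1 was at 6.93, 4.18, 3.48, 6.91 and 4.26 FPKM at 10 µg/L and at 5.47, 4.14, 10.6, 9.82 and 6.18 FPKM at 1 mg/L, which overlapped the controls at both doses. RACGAP1 was between 5.73 and 12.8 FPKM at 10 µg/L and between 7.69 and 12.8 FPKM at 1 mg/L, against 6.32 to 17.4 FPKM at 0.1 g/L.

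Direct comparisons between doses do not use the controls. Against 1 mg/L, 0 genes passed at 0.1 g/L (smallest adjusted p 0.449, limma), and 105 (1.1%) had an unadjusted p under 0.05, of which 16 (0.168%) were higher and 89 (0.934%) lower at 0.1 g/L. The median difference of all genes in this comparison was -0.16, so the lower side was favoured by the libraries as a whole. In 26 genes (0.273%) all 5 values at 0.1 g/L lay below all 5 at 1 mg/L, and in 1 gene (0.0105%) they lay above. Of the genes named above, APEH had the smallest p here, with 10.1, 9.46, 15.4, 10.7 and 9.65 FPKM at 0.1 g/L against 27.7, 34.1, 26.2, 30.2 and 30.8 FPKM at 1 mg/L, and its groups did not overlap. These values are by gene name. An unnamed transcript of the APEH locus held 5.37 to 25.7 FPKM at 0.1 g/L, and the whole locus was not compared between these doses. Against 10 µg/L, 0 genes passed (smallest adjusted p 1, limma), 83 (0.871%) had an unadjusted p under 0.05, and the median difference was 0.02.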

How the data were processed

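RNA-seq libraries kept the strand, were made after rRNA removal and were read from both ends for 75 bases. Per the labels and methods, the authors aligned reads to GRCh38 with HISAT2 and assembled and quantified transcripts with StringTie and Ensembl release 89. Each library had its own column of deposited FPKM. The column names and titles hold the word Combined before the library number, and they do not say what was combined. A few deposited columns hold values below 0, so they were read as a score, and these 6 values (lowest -3e-06) were set to 0. Of 234960 transcripts, 35782 have no gene name. No 2 libraries were identical. Of 199178 Ensembl transcripts in the table, 194736 were found in GENCODE v44 on GRCh38, 194734 of them on the same chromosome.

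FPKM were summed per gene name, and log2(FPKM + 1) of genes with a variance above 1 was fitted with limma 3.58.1 (lmFit, eBayes) in R 4.3.3 over all 25 libraries and 5 groups, with no covariate and Benjamini-Hochberg adjustment (threshold 0.05). Intervals are 95% limma intervals. Single values were compared by 2-sided exact permutation tests over 252 splits, whose smallest p is 0.00794. The script was tested on simulated data. Loci, FPKM times length, and leaving out 2 libraries were added after the data had been seen. FPKM are not counts, so no count test was used. Depth is an estimate: 49.9% to 61.0% of low values lay within 0.1 of a whole step, against 20% for values spread evenly.

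Replicate numbers were given in accession order and were not used to pair libraries. Named genes were the 24 with the smallest p, up to 5 without overlap in each direction, and in each list the most abundant member and the 2 with the smallest p, besides CYP1A1, CYP1A2, CYP1B1, CYP3A4, CYP2B6, ALB and KRT19. PROS1, RN7SL2, C4B, PECAM1 and other markers, the other mitochondrial genes and the locus on chromosome 3 stand outside that rule. The comparison and the lists were chosen with earlier results of these data known. Some items are not reported here. Other steps used Python 3.11.15, numpy 2.4.6, pandas 2.3.3 and matplotlib 3.10.9.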

Additional observations from a re-analysis of the deposited data

Results flagged for a closer look

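In 24 of 202 groups of 5 libraries examined, the highest or lowest library stood apart by more than 0.71 of the range of its group. That limit flags about 1 in 20 groups of independent, normally distributed values. FPKM here include values listed at 0, and the groups share libraries, so the 24 cannot be set against that rate. In 0.1 g/L libraries these were, in FPKM, NUDT4 in replicate 2 (4.30), RN7SL1 in replicate 1 (0), AL139099.5 in replicate 1 (36819), APEH in replicate 3 (15.4), ATP5S in replicate 1 (2.06), MT-CO1 in replicate 1 (0), MT-ND5 in replicate 3 (0), ATP5B in replicate 2 (93.2), EBP in replicate 1 (18.7), HSPA8 in replicate 1 (69.8), TTR in replicate 4 (507), LYZ in replicate 1 (9.38) and RNU2-2P in replicate 5 (2.70). The mitochondrial share of the FPKM sum stood apart in replicate 3 (0.691%).

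In control libraries they were ERO1A in replicate 5 (11.2 FPKM), GSTA1 in replicate 4 (587), UGT2B17 in replicate 4 (20.8), FTL in replicate 5 (2382), MT-CO1 in replicate 5 (193), MT-ND5 in replicate 5 (12.5), ATP5B in replicate 5 (106), GAMT in replicate 3 (51.5), LUM in replicate 5 (25.7) and LYZ in replicate 1 (8.95). Control replicate 5, which has the lowest FPKM sum of its group, accounts for 6 of these 10.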

How the results depend on the processing

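The number of genes called at 0.1 g/L against control was 0 under most other settings. The count was 1 with 75th-percentile scaling (RACGAP1, adjusted p 0.0194), with quantile normalization (RACGAP1, 0.026) and with array weights (RACGAP1, 0.0353), and it was 3 when limma was fitted to the 10 libraries only (AL139099.5, NUDT4 and RN7SL1, smallest adjusted p 0.0155), where 1 listed gene, RN7SL1, was called. It was 1 for assembled loci (adjusted p 0.00147), a call that was lost with 75th-percentile scaling (0 of 8380 loci, smallest adjusted p 0.174). Leaving out 1 library at a time gave 0 to 1 called genes, the 1 being RACGAP1 without Control replicate 2. Against 10 µg/L it gave 0 to 2, the 2 without 10 µg/L replicate 1, and against 1 mg/L it gave 0. The cause was not tested.

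The count at an unadjusted p under 0.05 moved more, from 84 to 1007 without a filter, 647 with 75th-percentile scaling, 329 with quantile normalization, 316 with the library-size covariate, 306 with array weights, 718 over transcripts, 36 over loci, 2289 over loci with 75th-percentile scaling and 155 without Control replicate 5. With 75th-percentile scaling 625 were higher and 22 lower, and the median of all genes was 0.15. Replicate numbers were not taken as a pairing. Library numbers in the titles run in step with them, at 1, 19, 37, 55 and 73 for controls and 5, 23, 41, 59 and 77 for 0.1 g/L. Same-numbered control and 0.1 g/L libraries correlated at 0.00807 to 0.0806 across genes in their deviations from the group means. This correlation does not register a shift common to all genes of a library. Of the 5 control libraries 1, and of the 5 at 0.1 g/L 2, correlated best with the library of their own number in the other group. The libraries of replicate number 1 had FPKM sums of 449407 to 487670 in all 5 groups. They also lay between -26.5 and -23.5 on the first principal component, where all 25 libraries ran from -31.8 to 78.9. On components 2 and 3 these libraries lay between 9.56 and 13.1 and between 4.29 and 17.7. Libraries of replicate number 3 lay between -14.1 and -5.25 on component 3 but between -20.7 and 7.76 on component 2. Those of numbers 2, 4 and 5 had both signs on component 3. Whether libraries of the same number were handled together was not tested. With the replicate number as a block, 0 genes were called and 137 had an unadjusted p under 0.05, and 1033 with the block and 75th-percentile scaling.

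Principal components of rescaled values are other axes with an arbitrary sign. With 75th-percentile scaling the groups differed by -6.48 on component 1 (exact permutation p 0.429), -24.3 on component 2 (0.0159) and 6.45 on component 3 (0.397), and with unit variance by 3.11 (0.778) and -3.57 (0.786) on components 2 and 3. Without the 2 libraries that stand apart, the differences were 1266 gene names and -0.361 percentage points of mitochondrial share (exact p 0.0857 each). With 5 libraries a group and a median half-width of 0.56, smaller log2 differences of most genes were not detectable even before adjustment. Larger ones, such as those of RACGAP1 and NUDT4, did not pass the adjusted threshold in the main fit.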
